A study of Mus musculus with 12 samples.

Results

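Succinate dehydrogenase, also named complex II, is the enzyme that the tricarboxylic acid (TCA) cycle and the respiratory chain have in common. *Sdha* encodes the flavoprotein that carries FAD and oxidises succinate to fumarate, *Sdhb* encodes the iron-sulfur protein that passes the electrons on, and *Sdhc* and *Sdhd* encode the membrane anchors at which coenzyme Q is reduced. Complex II pumps no protons, and all of its subunits are encoded in the nucleus, unlike those of the other electron-transferring complexes. The proteins needed to build it, the products of *Sdhaf2* and *Sdhaf1*, act on the insertion of FAD into the flavoprotein and of iron-sulfur clusters into *Sdhb*, respectively. In skeletal muscle, succinate dehydrogenase activity is a classical stain for oxidative fibers.

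The 6 genes described here are these 4 subunits and 2 assembly factors, chosen by name and not by their values, among 55367 gene symbols in the data. RNA was sequenced from isolated single fibers of the extensor digitorum longus, a fast muscle of the hindlimb, in 12 samples of 4 per group. Young fibers came from mice of 3–4 months, whereas Fluo-4 normal and Fluo-4 abnormal fibers came from aged male mice of 26–28 months. Fluo-4 is a fluorescent calcium indicator, and the aged fibers were separated under a fluorescence stereomicroscope by how they stained, so both aged groups share age and muscle and differ by this sorting. The mice were C57BL/6J by the study's methods, the labels name no mutation or treatment, and neither the number of fibers nor of mice behind a sample is given.

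Values are TPM, a unit of relative transcript abundance in which a gene's reads are divided by its length and scaled to the same total in each sample, so levels can be compared between genes but only as shares of the RNA. Less RNA of a gene per fiber and fewer fibers that express it cannot be told apart in such samples. How many reads lie behind a value is unknown, so counting error is not given. Fast muscle genes defined the samples, since the summed level of *Acta1*, *Ckm*, *Mylpf*, *Tnnt3*, *Tnnc2* and *Myh4* was between 149660 and 201021 TPM in all 12. *Xist*, a transcript of female cells, was listed at 0 in all 12 samples. The Y-linked *Ddx3y* was at 29.0 to 33.5 TPM in young and 18.9 to 36.4 TPM in aged samples, as in males. Markers of other cells were also present. The sum of 5 erythroid markers was 118.5 to 482 TPM in Fluo-4 normal, 44.4 to 236 in Fluo-4 abnormal and 33.1 to 121 in young samples. The sum of 5 adipocyte markers was 32.8 to 111.7 TPM, 8.28 to 64.4 and 15.4 to 28.6 in the same order, with *Adipoq*, *Plin1* and *Lep* listed at 0 in all 12 samples. Fibroblast markers summed to 25.3 to 82.4, 13.6 to 63.8 and 19.4 to 38.04 TPM, and smooth muscle and pericyte markers to 6.55 to 30.1, 3.36 to 14.4 and 5.30 to 66.1 TPM. The ranges of all 3 groups overlapped for each of these 4 cell types, except that Fluo-4 normal samples lay above young samples in the adipocyte sum. Endothelial markers reached at most 24.3 TPM and satellite cell markers at most 16.1 TPM. The sum of 6 immune cell markers was 2.63 to 5.71 TPM in Fluo-4 abnormal samples against 0.794 to 1.98 in young and 1.08 to 1.69 in Fluo-4 normal samples. Of these immune markers, 2 reached 1 TPM in a Fluo-4 abnormal sample, and *Itgam* and *Cd79a* were listed at 0 in all 4. The sum of 5 Schwann cell markers was 3.63 to 7.98 TPM in Fluo-4 abnormal, 1.42 to 6.60 in Fluo-4 normal and 0.773 to 1.81 in young samples. The part of these cells in the results was not tested.

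The genes are spread over 6 chromosomes of the mouse genome (GRCm39), and each was listed once. *Sdha* (ENSMUSG00000021577.16) is at chr13:74469359-74498436 on the minus strand with 15 exons, and *Sdhb* (ENSMUSG00000009863.16) is at chr4:140688502-140709380 on the plus strand with 8 exons. *Sdhc* (ENSMUSG00000058076.14) has 6 exons at chr1:170954732-170978223, and *Sdhd* (ENSMUSG00000000171.7) has 4 exons at chr9:50507642-50515195, both on the minus strand. *Sdhaf1* (ENSMUSG00000074211.5) is a single-exon gene at chr7:30020831-30023320, and *Sdhaf2* (ENSMUSG00000024668.10) has 4 exons at chr19:10473995-10503506, again on the minus strand. No near-identical copy of any of the 6 transcripts was found elsewhere in the genome. The libraries kept no record of the strand, and 80 bp of *Sdha* exon lie opposite an exon of *Ccdc127*, which reached at most 55.2 TPM, so reads from this stretch cannot be assigned to either gene. Likewise, 57 bp of *Sdhb* exon lie opposite an exon of the long non-coding RNA *Gm68270*, for which no level was read here. *Sdhd* and *Timm8b*, a mitochondrial import gene, start 2 bp apart on opposite strands without sharing exon sequence.

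Start regions of the subunits are shown so that the motifs held by genes of 1 enzyme can be compared. RefSeq promoters (GRCm38.p6, an earlier build than that of the data) from 250 bases before to 50 after the start matched 5 of the 6 genes. *Sdhc* had no entry. Below are the last 160 bases before the start, written 5′ to 3′ along the gene, of *Sdha* (chr13:74350241-74350400, minus strand), *Sdhb* (chr4:140961111-140961270, plus strand) and *Sdhd* (chr9:50603850-50604009, minus strand). Capitals mark matches to the motif of nuclear respiratory factor 1 (NRF1), which is GCGCA and GCGC with any base between them, in *Sdha* and *Sdhd*, to CCGGAAG, the core bound by ETS factors such as GABP, on the other strand in *Sdhd*, and to GGGCGG, the motif of Sp1, on the other strand in *Sdhb*.
Sdha: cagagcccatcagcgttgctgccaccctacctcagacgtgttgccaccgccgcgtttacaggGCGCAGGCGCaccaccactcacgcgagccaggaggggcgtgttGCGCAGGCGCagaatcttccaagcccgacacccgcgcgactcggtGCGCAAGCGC
Sdhb: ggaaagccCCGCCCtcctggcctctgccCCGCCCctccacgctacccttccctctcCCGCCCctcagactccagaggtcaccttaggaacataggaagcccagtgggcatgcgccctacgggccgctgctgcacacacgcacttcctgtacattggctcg
Sdhd: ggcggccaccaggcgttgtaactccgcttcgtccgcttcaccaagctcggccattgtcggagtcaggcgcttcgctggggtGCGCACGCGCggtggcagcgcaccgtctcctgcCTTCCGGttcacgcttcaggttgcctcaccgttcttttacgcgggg

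The *Sdha* promoter held 3 NRF1 matches and none of the other motifs, whereas *Sdhb* held 3 Sp1 matches upstream and 1 ETS match after the start. *Sdhd* held 1 NRF1 match, 1 ETS match, 1 Sp1 match across the start and, at positions 37 to 43 after it, the estrogen-related receptor (ERR) letters AAGGTCA on the other strand. *Sdhaf1* and *Sdhaf2* each held ETS and Sp1 matches, and *Sdhaf2* also held AANATGGC, a motif of YY1. Among all 32851 promoters of this length, searched on both strands, 4.6% held the NRF1 letters, 8.86% the ETS letters, 35.7% the Sp1 letters, 4.72% the ERR letters and 6.05% the YY1 letters. None of the members' matches overlapped another. The motifs were picked after the sequences were seen, and a match is a description of letters only.

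In young fibers the subunits were abundant messages and the assembly factors were scarce ones. *Sdhb* had the highest level with 738 ± 58.2 TPM (SD, n = 4), followed by *Sdha* with 452 ± 11.2, *Sdhd* with 437 ± 29.0 and *Sdhc* with 183 ± 8.46 TPM. *Sdhaf2* was at 31.0 ± 1.29 and *Sdhaf1* at 11.2 ± 0.996 TPM. The same order, from *Sdhb* through *Sdha*, *Sdhd*, *Sdhc* and *Sdhaf2* to *Sdhaf1*, was found in 9 of the 12 samples, and in the other 3 *Sdhd* stood above *Sdha*. *Sdha* and *Sdhd* were thus the only neighbours whose levels overlapped, and they did so in each group. *Sdhb* made up 40.7% ± 1.32 of the summed TPM of the 4 subunits in young fibers, and *Sdhc* 10.1% ± 0.564.

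Fluo-4 abnormal and Fluo-4 normal fibers were compared to ask how fibers sorted by calcium staining differ within aged muscle. Complex II subunit messages were lower in the Fluo-4 abnormal fibers, and the summed level of the 4 subunits was 1379 ± 144 TPM against 1950 ± 106 TPM (both SD, n = 4). The 4 Fluo-4 abnormal samples ranged from 1197 to 1507 TPM and the 4 Fluo-4 normal samples from 1864 to 2105 TPM without overlap. The log2 difference of the sum was -0.50 (exact two-sided permutation test, p = 0.0286, the smallest that 4 against 4 samples allow). By a linear model fitted with limma to log2(TPM + 1) of all 14428 tested genes, with Benjamini-Hochberg adjustment and a threshold of 0.05, 3 of the 6 genes, *Sdhb*, *Sdhc* and *Sdhd*, were called lower. Of all tested genes, 1.99% were called lower and 7.36% higher in this comparison, and of those with a mean of at least 5 TPM in a group, as for the 6 genes, 3.7% were called lower. Nothing states that the samples of a group came from separate mice, so these p-values measure the spread between these samples only.

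**Figure D1:**
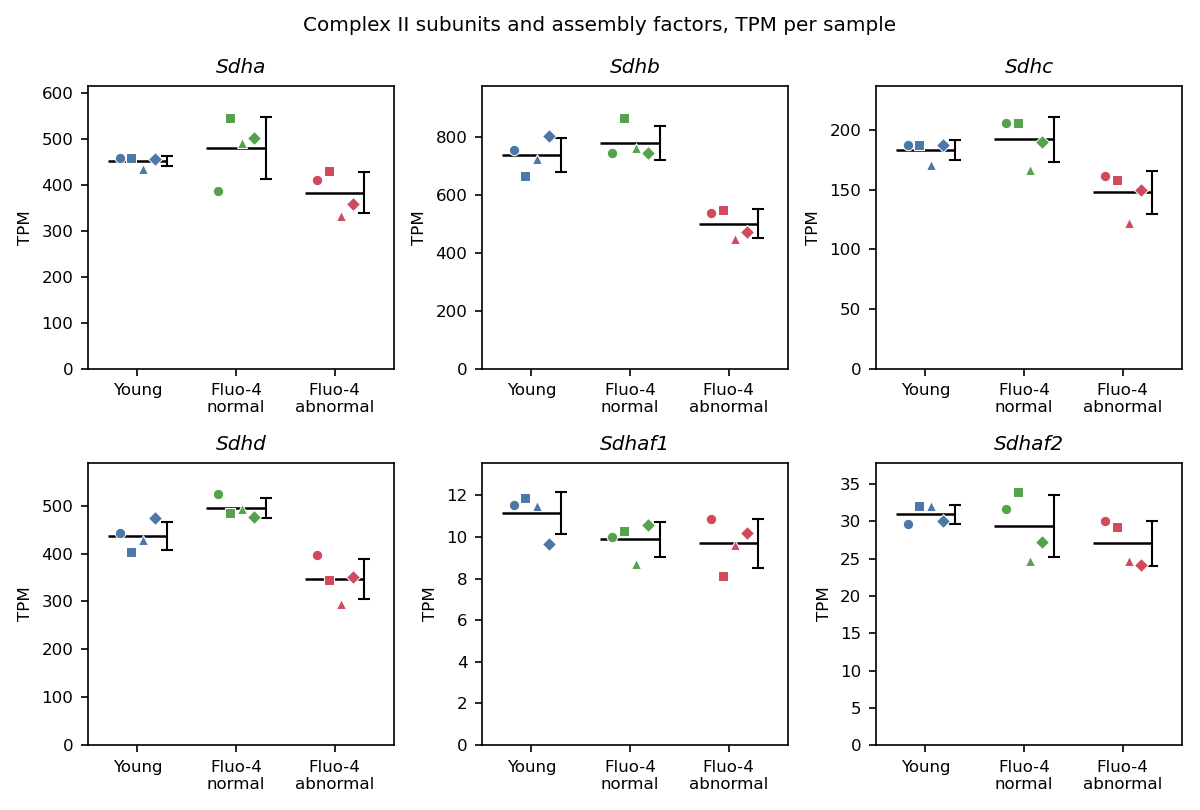
Levels (TPM) of the 4 subunits and 2 assembly factors in young, Fluo-4 normal and Fluo-4 abnormal fibers; each symbol is 1 sample, its shape marks the replicate number, lines are means and bars are SDs (n = 4). *Sdhb* of the Fluo-4 abnormal samples, 448 to 549 TPM, lies under all other samples, whereas *Sdhaf1* and *Sdhaf2* overlap in all groups.

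*Sdhb* showed the largest difference of the 6 genes. Its level was 747, 868, 765 and 745 TPM in the 4 Fluo-4 normal samples. In the Fluo-4 abnormal samples it was 537, 549, 448 and 472 TPM. Every Fluo-4 abnormal sample was thus below every Fluo-4 normal sample, and the group mean was 64.2% of that of Fluo-4 normal fibers. The log2 change was -0.64 (SE 0.08, 95% interval -0.82 to -0.46), with an adjusted p of 0.000951 by limma. Only 1.06% of tested genes had a lower change.

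The membrane anchors were also lower. *Sdhd*, the anchor with the higher message level, was at 525, 485, 493 and 476 TPM in Fluo-4 normal fibers. In Fluo-4 abnormal fibers *Sdhd* was at 397, 344, 295 and 351 TPM, which is 70.1% of the Fluo-4 normal mean and does not overlap with it. Its log2 change was -0.52 (SE 0.08, 95% interval -0.70 to -0.34, limma adjusted p = 0.00297). *Sdhc* was at 206, 206, 166 and 190.2 TPM in Fluo-4 normal fibers against 161, 158, 122 and 149.5 TPM in Fluo-4 abnormal fibers. The groups of *Sdhc* lie close, with the lowest Fluo-4 normal sample just above the highest Fluo-4 abnormal one, and the mean was 76.8% of that of Fluo-4 normal fibers. The log2 change of *Sdhc* was -0.38 (SE 0.09, 95% interval -0.58 to -0.18, limma adjusted p = 0.0233). Groups that did not overlap, with the Fluo-4 abnormal samples lower, were found for 2.54% of tested genes. The call of *Sdhc* rested on single samples, since its adjusted p was 0.0621, 0.0714 and 0.0524 without Fluo-4 normal sample 1, 2 or 4, and 0.0516 and 0.0511 without Fluo-4 abnormal sample 3 or 4.

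*Sdha*, the catalytic flavoprotein, did not pass the threshold. It was at 386, 546, 492 and 502 TPM in the Fluo-4 normal samples and at 412, 430, 333 and 359 TPM in the Fluo-4 abnormal samples. The first Fluo-4 normal sample stood below 2 of the Fluo-4 abnormal ones, and the other 3 stood above all of them. The log2 change was -0.32 (SE 0.10, 95% interval -0.55 to -0.10, limma adjusted p = 0.0667). Without Fluo-4 normal sample 1 the adjusted p of *Sdha* was 0.0135, with a log2 change of -0.43. Same-numbered aged samples deviated together from their group means. With the number as a block over all 12 samples, young ones included, *Sdha* was called lower with a limma adjusted p of 0.0495 (0.159 when the block was fitted in the 8 aged samples only).

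The assembly factors did not pass the threshold. *Sdhaf2* was between 24.7 and 34.0 TPM in Fluo-4 normal fibers and between 24.2 and 30.1 TPM in Fluo-4 abnormal fibers, with a log2 change of -0.11 (95% interval -0.34 to 0.12, limma adjusted p = 0.540). *Sdhaf1* was between 8.70 and 10.6 TPM and between 8.14 and 10.9 TPM, respectively, with a log2 change of -0.03 (95% interval -0.27 to 0.22, limma adjusted p = 0.908). The groups overlapped for both genes, and whether the assembly factors differed from the subunits was not tested. Of the remaining assembly factors, *Sdhaf4*, which assists the flavoprotein before it joins *Sdhb*, was at 112.6 ± 13.5 TPM in Fluo-4 normal and 88.4 ± 13.4 TPM in Fluo-4 abnormal fibers. Its log2 change of -0.35 had a limma adjusted p of 0.0549, and of 0.0134 with the replicate block. *Sdhaf3*, which protects the iron-sulfur protein during assembly, was at 4.46 ± 0.416 and 4.45 ± 0.0655 TPM.

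**Figure D2:**
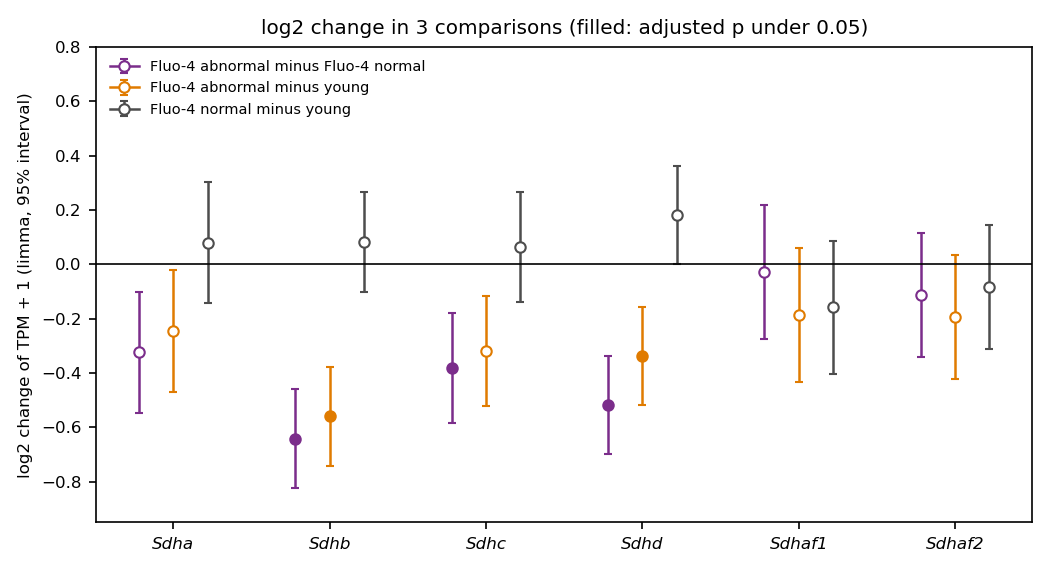
Log2 change of TPM + 1 of each gene in the 3 comparisons, with 95% intervals from limma (all 12 samples in the fit); filled symbols have an adjusted p under 0.05. The filled symbols are *Sdhb*, *Sdhc* and *Sdhd* in Fluo-4 abnormal against Fluo-4 normal fibers and *Sdhb* and *Sdhd* in Fluo-4 abnormal against young fibers.

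TPM are shares, and the median of all tested genes was itself shifted by 0.10 between Fluo-4 abnormal and Fluo-4 normal fibers. Relative to this median the log2 changes were -0.74 for *Sdhb*, -0.62 for *Sdhd*, -0.48 for *Sdhc*, -0.43 for *Sdha*, -0.21 for *Sdhaf2* and -0.13 for *Sdhaf1*. With TMM-type scaling factors, which set the median to 0, the 4 subunits were called lower, with *Sdha* at -0.55 (limma adjusted p = 0.00225). The same scaling turned the split of all calls from 1062 higher and 287 lower to 308 higher and 544 lower. Mitochondrially-encoded genes took 4.75% to 6.92% of the TPM in Fluo-4 abnormal and 8.75% to 10.9% in Fluo-4 normal samples, and without them in the scaling *Sdha* was at -0.38 (limma adjusted p = 0.0470).

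Beyond their levels, the subunits were compared with each other within each sample. The ratio of *Sdha* to *Sdhb* within a sample was 0.763 in Fluo-4 abnormal fibers (0.743 to 0.783), 0.613 in Fluo-4 normal fibers (0.517 to 0.673) and 0.614 in young fibers (0.567 to 0.689), as geometric means with the lowest and highest sample. All 4 Fluo-4 abnormal samples thus stood above all 8 others, and their ratio was 125% of that in Fluo-4 normal and 124% of that in young fibers. The log2 difference from Fluo-4 normal fibers was 0.32 (SE 0.09), with an exact permutation p of 0.0286 and 0.171 after adjustment over the 18 ratio comparisons, a design in which no single ratio could pass 0.05. *Sdhb* made up 35.4% to 37.4% of the 4 subunits in Fluo-4 abnormal samples and 39.0% to 41.2% in Fluo-4 normal samples. *Sdhb* was 1.31 times the level of *Sdha*, its next neighbour, in Fluo-4 abnormal fibers (1.28 to 1.35) and 1.63 times in young fibers (1.45 to 1.76).

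The other pairs of subunits overlapped between Fluo-4 abnormal and Fluo-4 normal fibers. *Sdhb* to *Sdhc* was 3.40 against 4.07, lower in 4 of 4 same-numbered pairs (exact permutation p = 0.0571). *Sdhb* to *Sdhd* was 1.45 against 1.58 (exact permutation p = 0.200), also lower in 4 of 4 pairs. The ratios of *Sdha* to *Sdhc*, *Sdha* to *Sdhd* and *Sdhc* to *Sdhd* had exact permutation p-values of 0.857, 0.257 and 0.114. The ratio of the anchors to each other, *Sdhc* to *Sdhd*, was 0.426 against 0.387, higher in 4 of 4 pairs.

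**Figure D3:**
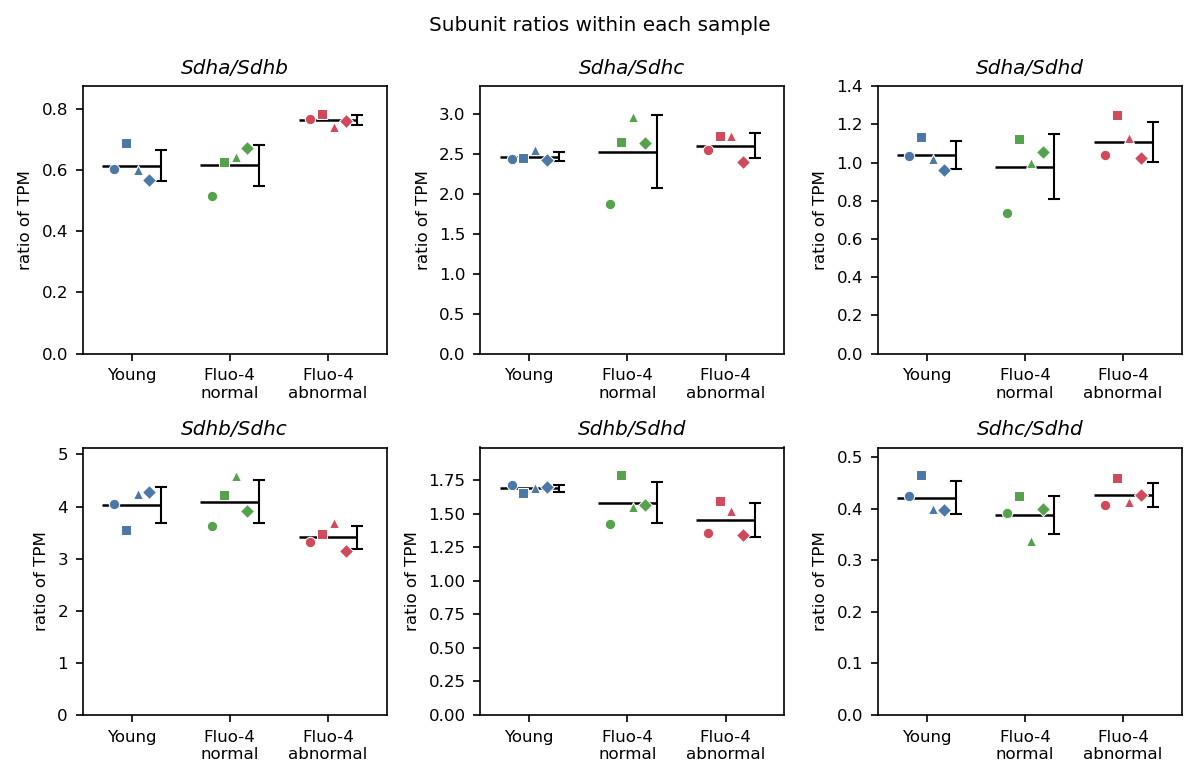
Ratios of TPM of the 6 pairs of subunits within each sample, by group; symbols are samples, lines are means and bars are SDs (n = 4). For *Sdha*/*Sdhb*, the Fluo-4 abnormal samples (0.743 to 0.783) lie above all young and Fluo-4 normal samples.

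The myosin makeup of the samples was examined beside these values. *Myh4*, the myosin heavy chain of the fastest glycolytic fibers, made up 99.2%, 93.7%, 95.2% and 96.8% of the TPM of the 4 adult genes *Myh4*, *Myh1*, *Myh2* and *Myh7* in the Fluo-4 normal samples. In Fluo-4 abnormal samples the *Myh4* share was 99.4%, 98.9%, 99.7% and 99.6%, and in young samples 97.3%, 98.6%, 98.3% and 96.9%. Fluo-4 normal sample 1, with the lowest *Sdha* level of its group, also had the highest *Myh4* share of its group. The other values did not all go the same way. In this sample *Sdhd*, at 525 TPM, was the highest of its group. Its ratio of *Sdha* to *Sdhb*, 0.517, was the lowest of its group, whereas the Fluo-4 abnormal samples, also high in *Myh4*, had ratios of 0.743 to 0.783. The share was 99.4% ± 0.320 in Fluo-4 abnormal and 96.3% ± 2.36 in Fluo-4 normal samples (exact permutation p = 0.0571), and 97.8% ± 0.801 in young samples (exact permutation p = 0.0286 against Fluo-4 abnormal).

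With the *Myh4* share as a covariate in limma, *Sdha* was at a log2 change of -0.06 between Fluo-4 abnormal and Fluo-4 normal fibers (adjusted p = 0.772). *Sdhb* was at -0.48 (adjusted p = 0.0327) and *Sdhd* at -0.52 (adjusted p = 0.0372), both still called, whereas *Sdhc* was at -0.39 (adjusted p = 0.103). With both this covariate and the replicate block, 0 of the 6 genes were called, with adjusted p-values of 0.0600 for *Sdhb*, 0.0615 for *Sdhc*, 0.0634 for *Sdhd* and 0.740 for *Sdha*. Of all 14428 tested genes, that fit called 45 lower and 201 higher, and the fit with the covariate alone 108 lower and 712 higher. Without covariate or block, 287 were called lower and 1062 higher. The *Myh4* share and the Fluo-4 staining differed together between the groups, and their parts in the subunit levels cannot be told apart.

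**Figure D4:**
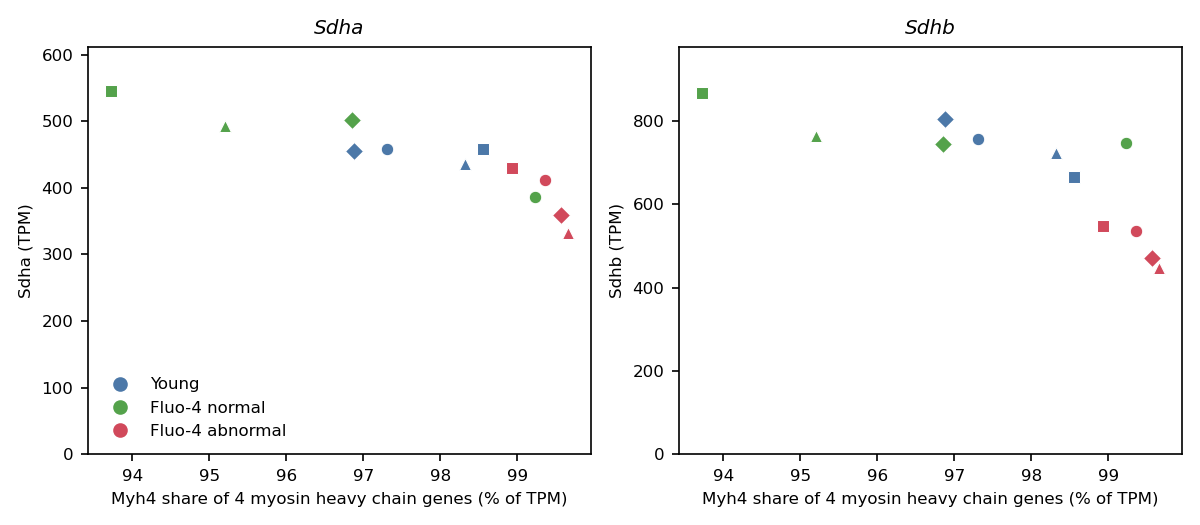
Levels of *Sdha* and *Sdhb* (TPM) against the *Myh4* share of 4 myosin heavy chain genes (% of TPM) in each of the 12 samples; colours mark groups and shapes replicate numbers. Fluo-4 normal sample 1, at a share of 99.2%, lies beside the Fluo-4 abnormal samples for *Sdha* (386 TPM) and above them for *Sdhb* (747 TPM).

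Other TCA cycle genes were also called lower in Fluo-4 abnormal fibers, in a number that depended on the fit. Of 14 TCA cycle genes outside complex II, 8 were called lower and 0 higher with all 12 samples in the fit. The count called lower was 2 with only the 2 aged groups, 2 with the replicate block in the 8 aged samples and 1 with the *Myh4* share as a covariate. Over all 14428 tested genes, these fits called 145, 232 and 108 lower, against 287 with all 12 samples and no covariate. In the fit of all samples, the median log2 change of the 14 genes was -0.25 against 0.10 over all tested genes. The 3 with the smallest p were *Idh3b* with a log2 change of -0.55 (limma adjusted p = 0.000633) and *Idh3g* with -0.36 (0.00620), both subunits of the NAD-dependent isocitrate dehydrogenase, and *Fh1* with -0.42 (0.00992), the fumarase that takes up the product of complex II. On the other side of complex II, *Suclg1* and *Sucla2*, subunits of the succinyl-CoA synthetase that releases succinate, had log2 changes of -0.25 (limma adjusted p = 0.0215) and -0.31 (0.0248), and the third subunit gene *Suclg2* was at -0.19 (0.353). These last 3 genes were chosen after their values were seen. The summed level of the complex II subunits was 0.336 of that of the other TCA cycle genes in Fluo-4 abnormal fibers (0.308 to 0.358) and 0.394 in Fluo-4 normal fibers (0.379 to 0.423). The groups did not overlap, and the log2 difference was -0.23 (SE 0.06, exact permutation p = 0.0286, 0.220 after adjustment over 18 comparisons).

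The other respiratory chain complexes were lower as well. Called lower were 23 of 36 nuclear genes of complex I, 8 of 9 of complex III, 10 of 11 of complex IV and 14 of 15 of complex V, with medians of -0.35, -0.39, -0.45 and -0.44, beside a median of -0.45 over the 4 complex II subunits. Examples were *Ndufa8* of complex I at -0.60 (limma adjusted p = 0.000730), the Rieske protein gene *Uqcrfs1* of complex III at -0.54 (0.00277), *Cox7a1* of complex IV, the isoform of muscle and heart, at -0.78 (0.00401) and *Atp5c1* of complex V at -0.42 (0.00295). *Ndufa8* and *Cox7a1* had the lowest log2 change of their lists. All 13 mitochondrially-encoded protein genes were called lower, with a median of -0.72. The ratio of complex II to complexes I, III, IV and V had overlapping groups, with log2 differences of -0.17, -0.11, -0.02 and -0.05 and exact permutation p-values of 0.114, 0.229, 0.771 and 0.457. Relative to the mitochondrially-encoded genes complex II was at 119% of its ratio in Fluo-4 normal fibers, higher in 4 of 4 pairs (exact permutation p = 0.0571). This ratio was 0.0266 in Fluo-4 abnormal, 0.0223 in Fluo-4 normal and 0.0257 in young fibers. Fluo-4 normal fibers were at 86.9% of young ones (exact permutation p = 0.0571). The groups overlapped in this comparison and in that of the aged groups, and each p was 0.220 after adjustment over 18 comparisons. Fluo-4 abnormal fibers were at 104% of young (exact permutation p = 0.771).

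Genes that supply complex II with cofactors gave mixed results. Of 17 genes of iron-sulfur cluster assembly, which *Sdhb* depends on, 4 were called lower and 0 higher, among them *Bola3*, a cluster transfer factor, at -0.43 (limma adjusted p = 0.0122), the glutaredoxin *Glrx5* at -0.29 (0.0274) and *Hscb*, a co-chaperone of cluster transfer, at -0.37 (0.0320). Of 5 genes of FAD supply, which *Sdha* depends on, 0 were called by limma and 1 had an unadjusted p under 0.05, namely *Slc25a32*, a mitochondrial carrier for FAD, at 0.43 (adjusted p = 0.144). Over all 14428 tested genes, 3693 had an unadjusted p under 0.05 in either direction. *Rfk*, which makes FMN from riboflavin, was at 106.9 TPM in Fluo-4 abnormal and 94.9 TPM in Fluo-4 normal fibers, a log2 change of 0.17 that was -0.06 with TMM-type factors. The transporter *Slc52a3* was listed at 0 in the Fluo-4 abnormal samples and had a mean of 0.039 TPM in Fluo-4 normal ones.

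Coenzyme Q is the electron acceptor of complex II. Of 13 genes of its synthesis, 3 were called lower and 0 higher, and these were the kinase-like *Coq8a* at -0.84 (limma adjusted p = 0.00668, with overlapping groups), the coenzyme Q-binding *Coq10a* at -0.38 (0.00808) and the lipid-binding *Coq9* at -0.35 (0.0158). Of 7 genes for other routes by which electrons reach coenzyme Q, 2 were called lower, *Etfa* at -0.38 (limma adjusted p = 0.00637) and *Etfb* at -0.30 (0.0121). They encode the subunits of the electron transfer flavoprotein, a carrier that does not itself reduce coenzyme Q. *Gpd2*, the mitochondrial glycerol-3-phosphate dehydrogenase, went the other way, with 87.7 TPM in Fluo-4 abnormal and 61.2 TPM in Fluo-4 normal fibers without overlap, a log2 change of 0.53 (SE 0.12, limma adjusted p = 0.0185).

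Over the 11 lists, 85 of 142 genes were called lower and 1 higher. With only the 2 aged groups in the fit 42 were called lower, and 105 with TMM-type factors. In that fit of 2 groups the counts were 9 for complex I, 3 for complex III, 7 for complex IV, 6 for complex V, 2 for the TCA cycle and 2 for iron-sulfur assembly. Leaving out 1 sample at a time gave 56 to 90 genes called lower. The lowest count was that without Fluo-4 abnormal sample 3, and the TCA cycle count was 4 without this sample or Fluo-4 normal sample 2 and 5 without Fluo-4 abnormal sample 4. Without Fluo-4 abnormal samples 3 or 2 or Fluo-4 normal sample 2 the complex I count was 13, 15 and 14, and that of complex III was 5 each time. The iron-sulfur count was 1 without Fluo-4 abnormal sample 3 or Fluo-4 normal sample 1 or 2, and 2 without Fluo-4 abnormal sample 2 or 4 or Fluo-4 normal sample 4. With the *Myh4* share as a covariate 26 of the 142 genes were called lower, and 7 with the replicate block added. Over all 14428 tested genes, 287 were called lower in the fit of all samples. That number was 145 with only the 2 aged groups, 108 with the *Myh4* share, 45 with the block added and 544 with TMM-type factors. It was 184 without Fluo-4 abnormal sample 3 and 297 without Fluo-4 abnormal sample 1.

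**Figure D5:**
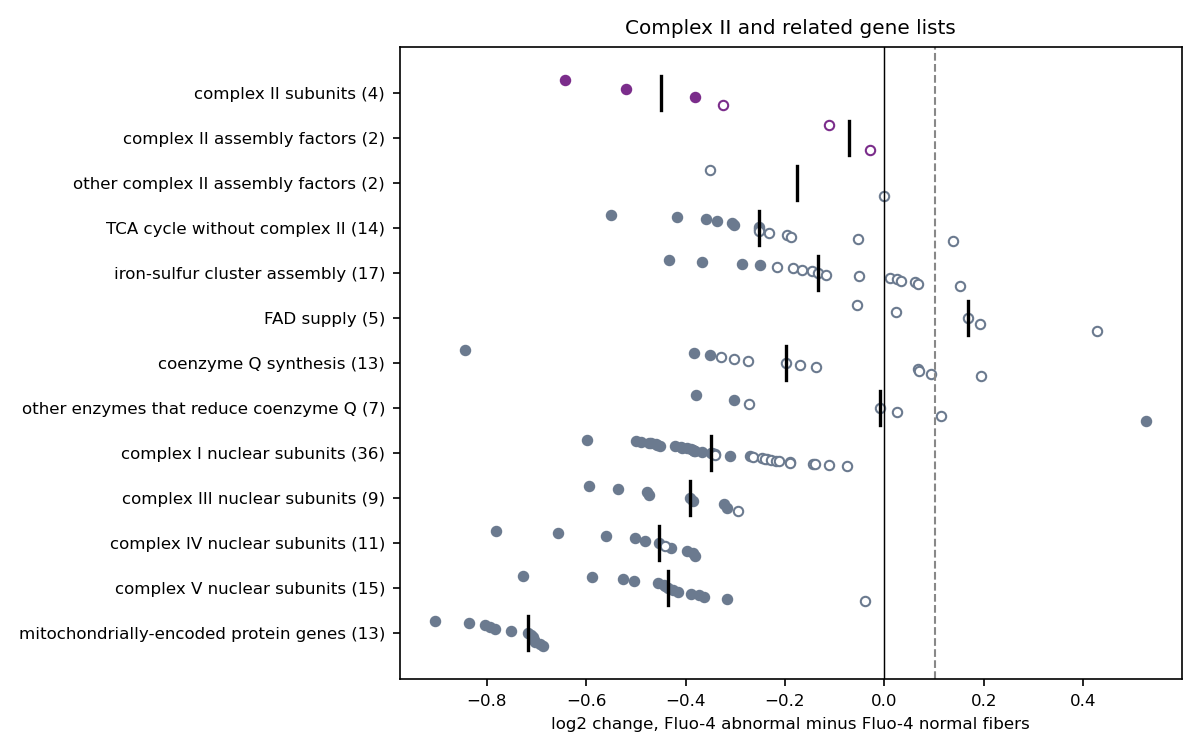
Log2 change between Fluo-4 abnormal and Fluo-4 normal fibers for the genes of complex II and of the related lists (number of genes tested in parentheses); each circle is 1 gene, filled where the limma adjusted p is under 0.05, and vertical bars are list medians. The dashed line is the median of all tested genes (0.10), and most circles of complexes I to V and of the mitochondrially-encoded genes lie left of 0.

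Fluo-4 abnormal fibers were compared with young fibers next, to set the sorted aged fibers beside unaged muscle. The Fluo-4 abnormal samples are the same as above, so the comparisons are not independent. *Sdhb* was at 758, 666, 724 and 805 TPM in young fibers and its mean in Fluo-4 abnormal fibers was 67.9% of theirs, a log2 change of -0.56 (SE 0.08, 95% interval -0.74 to -0.38, limma adjusted p = 0.00168). *Sdhd* was at 442, 404, 428 and 473 TPM in young fibers, and its log2 change was -0.34 (SE 0.08, 95% interval -0.52 to -0.16, limma adjusted p = 0.0250). These 2 of the 6 genes were called lower, against 2.41% of tested genes called lower and 6.09% called higher, and 4.36% lower among genes of at least 5 TPM. The call of *Sdhd* was lost without any one of young samples 1, 3 and 4 and Fluo-4 abnormal samples 2, 3 and 4, with adjusted p-values between 0.0539 and 0.0853, so 1 gene was then called.

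*Sdha* and *Sdhc* were below the threshold in this comparison although their groups did not overlap. *Sdha* was at 458, 459, 435 and 456 TPM in young fibers, a narrow range just above the highest Fluo-4 abnormal sample, and its log2 change was -0.25 (SE 0.10, limma adjusted p = 0.171). *Sdhc* was at 188, 188, 171 and 188 TPM, with a log2 change of -0.32 (SE 0.09, limma adjusted p = 0.0528, and 0.0454 without Fluo-4 abnormal sample 1). Groups without overlap and lower in Fluo-4 abnormal fibers were found for all 4 subunits and for 3.95% of tested genes. *Sdhaf1* and *Sdhaf2* overlapped between the groups, each with a log2 change of -0.19 (limma adjusted p = 0.365 and 0.303). The summed level of the subunits was 1379 ± 144 TPM against 1811 ± 91.5 TPM in young fibers, a log2 difference of -0.40 (exact permutation p = 0.0286).

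The ratios of the subunits were compared with those of young fibers as well. Besides *Sdha* to *Sdhb*, the ratio of *Sdhb* to *Sdhd* did not overlap, with 1.45 in Fluo-4 abnormal and 1.69 in young fibers, where the 4 samples lay within 1.65 to 1.71. Its log2 difference was -0.22 (SE 0.06, exact permutation p = 0.0286, 0.171 after adjustment over 18 comparisons). Complex II relative to the other TCA cycle genes was at 90.6% of the young ratio without overlap (exact permutation p = 0.0286, 0.220 after adjustment over 18 comparisons). With means of log2(TPM + 1) over the genes in place of summed TPM, these groups overlapped. In the related lists 53 of 142 genes were called lower and 0 higher by limma (96 and 2 at an unadjusted p under 0.05), including 8 TCA cycle and 16 complex I genes. Over all 14428 tested genes, 3323 had an unadjusted p under 0.05 in either direction. Of the 13 mitochondrially-encoded protein genes 4 were called lower, with a median of -0.42.

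Fluo-4 normal fibers were compared with young fibers to see whether aged fibers with ordinary staining differ from young ones in complex II. By limma 0 of the 6 genes were called in either direction, against 0.589% of tested genes called lower and 0.561% called higher, and 1 of the 6, *Sdhd*, had an unadjusted p under 0.05. *Sdhd* was 113% of the young mean, and all 4 Fluo-4 normal samples (476 to 525 TPM) were above all young samples (404 to 473 TPM). The log2 change of *Sdhd* was 0.18 (95% interval 0.0010 to 0.36, limma adjusted p = 0.382), and 3.03% of tested genes had Fluo-4 normal samples higher without overlap. *Sdha*, *Sdhb* and *Sdhc* had log2 changes of 0.08, 0.08 and 0.06, with intervals of -0.14 to 0.30, -0.10 to 0.27 and -0.14 to 0.26. The assembly factors *Sdhaf1* and *Sdhaf2* were at -0.16 and -0.08. The summed subunit level of 1950 ± 106 TPM stood beside 1811 ± 91.5 TPM in young fibers (exact permutation p = 0.114). Over all 14428 tested genes, 1866 had an unadjusted p under 0.05 in either direction in this comparison. In the 11 related lists 0 of 142 genes were called by limma, and 7 lower and 17 higher had an unadjusted p under 0.05. Of these 17, 8 were mitochondrially-encoded protein genes. All 13 genes of that list had a positive log2 change, with a median of 0.32.

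Finally, the pattern of the subunits over the 12 samples was compared with that of 5988 genes with a mean of at least 5 TPM. The measure was Pearson's r of log2(TPM + 1) with the mean of the 4 subunits, given without a test because the samples share 3 groups. *Mb*, the oxygen-binding protein myoglobin, was closest with r = 0.99 (Spearman's rho = 0.94), and its level was 862 TPM in young, 1299 TPM in Fluo-4 normal and 296 TPM in Fluo-4 abnormal fibers. The log2 change of *Mb* between the aged groups was -2.20 (limma adjusted p = 0.000870), beyond that of any complex II gene. The next were *Ndufs7* and *Ndufa9* of complex I, *Uqcrfs1* of complex III and *Fxyd6*, a regulator of ion transport, each with r = 0.98 and with 0.95 to 0.98 after leaving out the 2 samples farthest from the median, Fluo-4 abnormal samples 3 and 4. Among the members themselves, r with the subunit mean was 0.98 for *Sdhb*, 0.94 for *Sdhd*, 0.93 for *Sdhc* and 0.86 for *Sdha*, which are part of that mean, and 0.58 for *Sdhaf2* and 0.21 for *Sdhaf1*, which are not.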

How the data were processed

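RNA from isolated myofibers was purified with TRIzol, and 10 ng per sample went into SMART-Seq v4 libraries. Reads had been aligned by the authors with DRAGEN to GRCm39, and TPM values per gene were deposited, 1 file per sample, each summing to 1000000. The annotation release is not given in the sources used here, and read counts were not used. Each file held 55487 entries and 55367 symbols, and values of the 114 symbols on several lines were added. Symbols were matched to GENCODE and RefSeq (2874 unmatched), and 14428 protein-coding or mitochondrially-encoded genes with a mean of at least 0.02 TPM in 1 or more groups were tested.

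The 3 groups were fitted together on log2(TPM + 1) with limma 3.58.1 in R 4.3.3 (variance trend on mean expression, Benjamini-Hochberg adjustment, threshold 0.05), after a test on simulated data. Adding 1 TPM shrinks the log2 change of low genes. Ratios within a sample were compared by two-sided exact permutation over 70 arrangements with scipy 1.17.1, and adjusted over the 18 comparisons of each kind of ratio. BLAST 2.17.0 was used to look for copies of the transcripts (identity of 95% or more over 100 bp or more, covering 50%).

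Named are the 6 members, *Sdhaf3* and *Sdhaf4*, the adult myosin heavy chain genes and the 5 genes most like the subunits. List genes were named from among the 3 of lowest p in each list between Fluo-4 abnormal and Fluo-4 normal fibers. For complexes I, III, IV and V only some of these were named as examples, and for the mitochondrially-encoded genes none. *Suclg1*, *Sucla2* and *Suclg2* were named outside this rule. The members, lists and tests were chosen with earlier results of these data known. Labels give no batch. Deviations from the group means correlated at 0.30 to 0.44 between Fluo-4 normal and abnormal samples of the same number and at -0.36 to 0.23 between different numbers, so the replicate number was used as a block, as 1 alternative. Young samples showed no such pairing. With the same number they correlated at -0.081 to 0.23 with Fluo-4 normal and at 0.0049 to 0.18 with Fluo-4 abnormal samples. With different numbers the ranges were -0.16 to 0.25 and -0.18 to 0.22. The block over all 12 samples thus also joined young and aged samples by a number that the labels do not explain. Scaling was varied with TMM-type factors (30% of ratios and 5% of levels trimmed) and by leaving out mitochondrially-encoded genes. Further alternatives were a pseudocount of 0.1 TPM, no filter or one of 5 TPM, all annotated genes, fits of 2 groups only, quality weights per sample, the *Myh4* share in the model, and leaving out each sample.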

Additional observations from a re-analysis of the deposited data

Results flagged for a closer look

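Of 60 groups of 4 samples examined for a sample far from the others by Dixon's criterion, 8 held one, and chance flags about 1 in 20 groups. Within young fibers, sample 3 was low for *Sdha* (435 TPM) and for *Sdhc* (171 TPM) and high for the ratio of *Sdha* to *Sdhc* (2.55), and sample 4 was low for *Sdhaf1* (9.68 TPM). Fluo-4 normal sample 2 was high for *Sdhb* (868 TPM). Fluo-4 normal sample 1 was low for complex II relative to complex I (0.0570) and to complex III (0.144). Fluo-4 abnormal sample 2 was high for complex II relative to complex V (0.0801).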

How the results depend on the processing

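Between Fluo-4 abnormal and Fluo-4 normal fibers, *Sdhb* and *Sdhd* were called lower in 19 of 20 alternatives, *Sdhc* in 12, *Sdha* in 6 and *Sdhaf4* in 8, and *Sdhaf1* and *Sdhaf2* in none. The replicate block with the *Myh4* share gave 0 called members, in a fit that called 246 of all 14428 tested genes, and leaving out each sample gave 2 to 3. Against young fibers, members called lower were 4 with TMM-type factors, 1 with only the 2 groups compared, 1 to 3 leaving out each sample, and 3 with the replicate block. Of all 14428 tested genes, 692 were called lower with TMM-type factors, 339 with only the 2 groups and 439 with the block. Fluo-4 normal and young fibers gave 0 in all alternatives, the replicate block included, which changed no call of complex II subunits or assembly factors other than *Sdha*, *Sdhaf4* and, against young, *Sdhc* (adjusted p = 0.00653). The cause of these changes was not tested. This block also joined young samples to aged ones by number, although their deviations showed no pairing, so its calls against young rest on an arbitrary match.

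Leaving out each sample, subunit ratios without overlap were 1 to 2 of 6 (aged groups), 2 to 3 (Fluo-4 abnormal against young) and 0 to 1 (Fluo-4 normal against young), and those of complex II to the other lists were 1 to 3, 1 to 4 and 0 to 2. With means of log2(TPM + 1) over the genes in place of summed TPM, so that each gene weighs alike, the latter count was 0 for Fluo-4 abnormal against young. For ratios the paired samples gave only counts of direction.

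Signs turned for values near 0. *Rfk* was at -0.056 with TMM-type factors. Complex II relative to complex IV was at 0.030 with means of log2(TPM + 1) over the genes in place of summed TPM. *Sdhaf3* was at 0.00065 (pseudocount of 0.1 TPM), 0.011 (quality weights), 0.081 (*Myh4* share), 0.061 (with the block) and -0.032 to 0.051 (leaving out each sample) between the aged groups. Against young, *Sdhaf3* was at 0.032 and 0.021 with the *Myh4* share without and with the block and -0.026 to 0.012 leaving out each sample, and in Fluo-4 normal against young at 0.032 (TMM-type), 0.015 (without mitochondrially-encoded genes) and -0.061 to 0.022. There *Sdha* was at -0.047 with the *Myh4* share and -0.037 with the block added, and *Sdhb* at -0.012 with both. *Sdhaf1* was at -0.083 to 0.045 between the aged groups leaving out each sample. Of 599 values of 30 list genes, 546 kept direction and side of the threshold, and 52 lost the call, 20 of them with the *Myh4* share and block. All calls numbered 1349 between the aged groups and 246 to 1959 over the alternatives. Without read counts, the precision of low genes is unknown.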
